A study of Homo sapiens with 3 samples.

Results

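TP53I3, TP53INP1, FAS, TNFRSF10B, PHLDA3, AEN, FDXR, ZMAT3, XPC and TIGAR are targets of the transcription factor p53 that act mostly on the side of cell death, repair and metabolism, and they were described across irradiated, repopulated and non-irradiated cancer cells. These 10 genes of 33538 in the matrices were picked by name, with their levels in these libraries already known, so the values below describe them and test nothing. HCT116, a colorectal cancer line with intact p53 (genotype p53plus), received 8 Gy, and the study calls the enlarged cells that outlive the dose radiation-tolerant persister (RTP) cells. Irradiated cells (IR) were RTP cells: giant cells were isolated on day 5 or 8 and cultured to day 10 or 11, and the 4 combinations were pooled. Mix1 held such cells alone. Mix2 pooled a repeat of them with repopulated cells (R, regrown after the dose) and non-irradiated cells (NC, 0 Gy), and antibody hashtags told them apart (tag8 for IR, tag7 for R and tag6 for NC, with about 10000, 1000 and 1000 cells loaded). All groups share the line and the p53 genotype, and each is 1 sample.

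Cells entered with 200 or more genes detected and with less than 10% of their UMIs (unique molecular identifiers, which count captured RNA molecules) from mitochondrial genes. Cells of Mix2 with the hashtag of IR were taken in 2 ranges of it, strong IR from about 3200 tag8 counts upward and weak IR from 500 counts to that limit, with medians of 7438.5 and 1323 counts. The labels do not say why tag8 varied so widely, so weak IR is a range of the hashtag, and whether all of its cells were irradiated was not tested. R needed about 100 tag7 counts or more and NC about 370 tag6 counts or more, and in each population the own tag made up at least 80% of the 3 tags. This left 2216 strong IR cells, 6322 weak IR cells, 633 R cells and 15630 Mix1 cells, against 810 NC cells, with median depths of 11861.5, 7216, 6933 and 8995.5 UMIs, against 7160.5 in NC. All 5 epithelial markers (EPCAM, KRT8, KRT18, KRT19 and CDH1) were at 5 CPM or more in every population, where CPM is the count per 1e6 of the summed UMIs. None of the 15 fibroblast, immune, endothelial and erythroid markers was. Of the barcode sequences, 59 occurred in both libraries. With 1 sample per population no difference has a replicate check, and the 95% intervals in brackets cover counting error only.

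p53 is stabilized after DNA damage and switches on genes for arrest, repair and death. Death receptors at the cell surface bind ligands and recruit caspases, whereas TP53I3, a quinone oxidoreductase, and FDXR, a mitochondrial reductase that passes electrons to ferredoxin, are tied to oxidative stress. TP53INP1 helps p53 to become phosphorylated on its death-promoting side, and also takes part in autophagy. HCT116 responds to irradiation mainly with p53-driven arrest, in which CDKN1A blocks cyclin-dependent kinases.

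p53 binds pairs of a decamer, and the stretches around the closest matches to that decamer are shown because p53 acts on its targets through such letters. The 250 bases before each RefSeq start (GRCh38.p14) were searched on both strands for the p53 decamer consensus. The table listed 11 starts for 7 members, and 3 starts of 3 members held a match, against 5.57% of 35116 RefSeq starts. The matches are in capitals, 5′ to 3′ on the strand of the gene.
FAS, chr10:88991299-88991328, plus strand: cggaactcctGGACAAGCCCtgacaagcca
AEN, chr15:88621296-88621325, plus strand: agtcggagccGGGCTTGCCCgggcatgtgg
FDXR, chr17:74872995-74873015, minus strand: gggcaggagcGGGCTTGCCCt
The stretch in FAS lies in an intron of 38 and an exon of 8 of the 46 GENCODE transcripts that span it. That of AEN lies before the GENCODE gene, and that of FDXR in an exon of the 4 transcripts over it. AEN and FDXR held the same decamer, GGGCTTGCCC, yet their levels stood differently against NC, as given below. TP53I3, ZMAT3, XPC and TIGAR had no match in these windows, and TP53INP1, TNFRSF10B and PHLDA3 were not searched. A match is a description of letters and not evidence of binding.

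Strong IR against NC asks how far these genes stood apart in the most strongly tagged persister cells. TP53I3 and TP53INP1 were about 6 times as high in strong IR as in NC, and all 10 members were higher to some degree. Of the 10, 8 were at least 1.5-fold higher and 0 were lower by that much, where 10.2% of the 9295 genes with a mean of 5 CPM were higher and 14.5% lower. The median log2 ratio of the members was 1.19, against -0.09 over all genes tested.

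TP53I3 (ENSG00000115129, chromosome 2, 24077433 to 24085861, minus strand, GRCh38 by GENCODE 44) had 153 CPM in strong IR (149 to 158), 48.2 CPM in weak IR, 36.6 CPM in R and 129 CPM in Mix1, against 25.7 CPM in NC (21.9 to 30.1). Its ratio to NC was 5.96 in strong IR (5.08 to 7.03) and 5.03 in Mix1 (4.30 to 5.92). Within Mix2 the order was strong IR, weak IR, R and NC, and no neighbours in it had a ratio whose interval held 1. R stood closest to NC, at 1.42 times its level (1.14 to 1.78).

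TP53INP1 (ENSG00000164938, chromosome 8, 94925972 to 94949378, minus strand) was the least abundant member in NC by UMIs, with 36 UMIs there. It had 35.2 CPM in strong IR (33.0 to 37.5), 10.4 CPM in weak IR, 6.97 CPM in R and 21.6 CPM in Mix1, against 5.90 CPM in NC (4.13 to 8.16). The ratio of strong IR to NC was 5.98 (4.29 to 8.58). R and NC did not differ beyond counting error for this gene, with a ratio of 1.18 (0.71 to 1.95).

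Among the death receptors, FAS came next after TP53INP1 and TP53I3 in the ratio of strong IR to NC, and TNFRSF10B stood further down. FAS (ENSG00000026103, chromosome 10, 88953813 to 89029605, plus strand), the receptor of Fas ligand, had 25.5 CPM in strong IR, 13.8 CPM in weak IR, 10.99 CPM in R and 20.7 CPM in Mix1, against 10.5 CPM in NC. It was 2.44 times higher in strong IR (1.88 to 3.20). TNFRSF10B (ENSG00000120889, chromosome 8, 23020133 to 23069031, minus strand), the TRAIL receptor DR5, had 28.5 CPM in strong IR, 20.5 CPM in weak IR, 18.0 CPM in R and 23.8 CPM in Mix1, against 18.3 CPM in NC. Its ratio of 1.56 in strong IR (1.27 to 1.91) was just past the 1.5-fold limit. It was 1.43 at a mitochondrial limit of 5%, 1.26 when the own tag had to make up 95% and 1.45 at 50%. The own tag limit of 95% left 88 NC cells.

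PHLDA3 (ENSG00000174307, chromosome 1, 201464278 to 201469237, minus strand) competes with the survival kinase AKT for membrane lipids. It had 60.4 CPM in strong IR, 33.2 CPM in weak IR, 24.9 CPM in R and 55.3 CPM in Mix1, against 25.4 CPM in NC, a ratio of 2.38 in strong IR (2.02 to 2.82). ZMAT3 (ENSG00000172667, chromosome 3, 178960121 to 179072215, minus strand), a zinc finger protein that binds RNA and regulates splicing, had 39.3 CPM in strong IR, 18.9 CPM in weak IR, 16.3 CPM in R and 34.5 CPM in Mix1, against 16.5 CPM in NC. Its ratio was also 2.38 in strong IR (1.94 to 2.95). AEN (ENSG00000181026, chromosome 15, 88621337 to 88632281, plus strand), an exonuclease of apoptotic DNA breakdown, had the lowest ratio of strong IR to NC among the members. It had 17.0 CPM in strong IR, 15.1 CPM in weak IR, 16.3 CPM in R and 17.7 CPM in Mix1, against 12.6 CPM in NC, a ratio of 1.35 in strong IR (1.06 to 1.74).

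The enzymes and the repair gene spread over the same range. FDXR (ENSG00000161513, chromosome 17, 74862497 to 74873031, minus strand) had 105 CPM in strong IR, 59.0 CPM in weak IR, 60.0 CPM in R and 103.8 CPM in Mix1, against 48.0 CPM in NC, and was 2.19 times higher in strong IR (1.94 to 2.48). TIGAR (ENSG00000078237, chromosome 12, 4307763 to 4360028, plus strand), a phosphatase that lowers fructose bisphosphate and turns glucose toward the pentose phosphate pathway, had 31.0 CPM in strong IR, 25.3 CPM in weak IR, 22.4 CPM in R and 28.7 CPM in Mix1, against 19.3 CPM in NC. Its ratio was 1.60 in strong IR (1.32 to 1.96), and was 1.37 at a mitochondrial limit of 5% and 1.41 when the own tag had to make up 95% (88 NC cells). XPC (ENSG00000154767, chromosome 3, 14145147 to 14178621, minus strand), the damage sensor of nucleotide excision repair, had 67.4 CPM in strong IR, 49.6 CPM in weak IR, 60.0 CPM in R and 66.1 CPM in Mix1, against 48.7 CPM in NC, a ratio of 1.39 in strong IR (1.23 to 1.57). For XPC the weak IR cells lay below R, at 0.83 of its level (0.73 to 0.94).

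**Figure D1:**
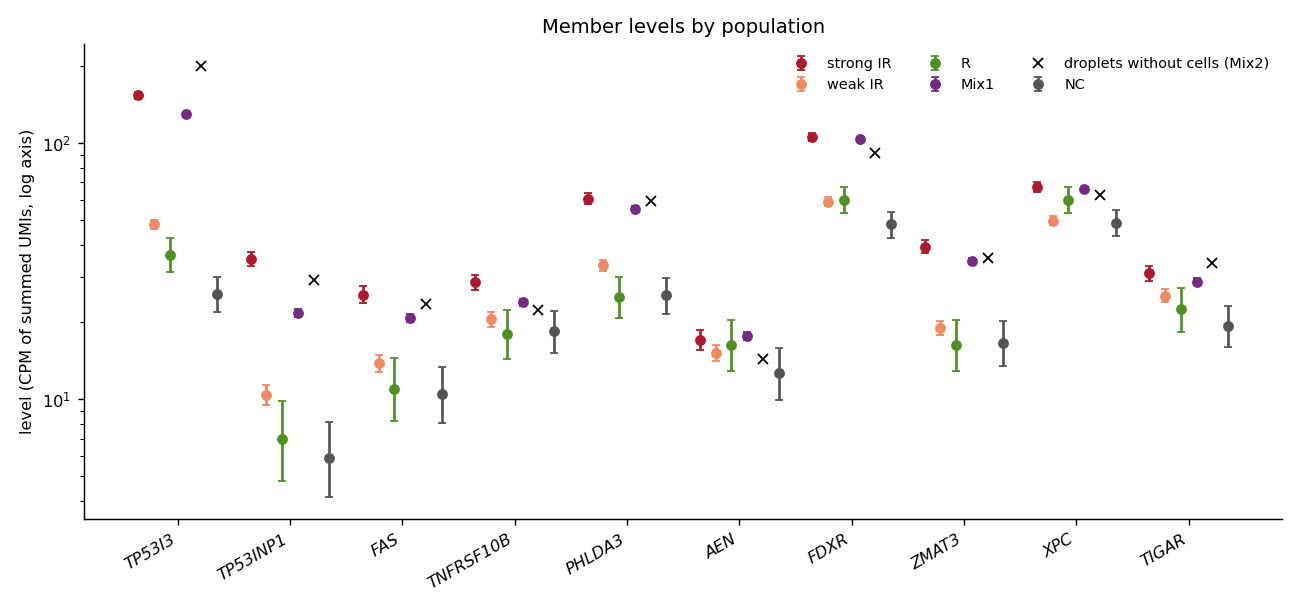
Level of each member in CPM of summed UMIs on a log axis, for strong IR, weak IR, R, Mix1, droplets of Mix2 without cells (crosses) and NC; bars are exact Poisson 95% intervals. TP53I3 lay at 153 CPM in strong IR and 129 CPM in Mix1, against 25.7 CPM in NC, and the droplets without cells lay above every population for this gene.

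In weak IR the members stood close to NC. TP53I3 (ratio 1.87, 1.59 to 2.22) and TP53INP1 (1.76, 1.26 to 2.55) were the 2 of 10 at least 1.5-fold higher, against 1.43% of all genes tested, and 0 were lower by that much (0.549% of all genes). The median log2 ratio of the members was 0.34. The intervals of TNFRSF10B, AEN, ZMAT3 and XPC held 1. In R, 0 of 10 members were 1.5-fold higher, against 2.51% of all genes, 0 were lower, against 2.66%, and the median log2 ratio was 0.23. Besides TP53I3, only FDXR (1.25, 1.06 to 1.48) and XPC (1.23, 1.04 to 1.46) had intervals above 1 in R. These counts depended on the mitochondrial limit: at 5%, which left 1160 weak IR and 31 R cells, against 172 NC cells, 7 of 10 members were at least 1.5-fold higher in weak IR, against 9.21% of all genes, and 7 in R, against 15.9%. Beside this, 20 genes of mitosis had a median log2 ratio to NC of -1.34 in strong IR, -0.24 in weak IR and -0.01 in R.

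In Mix1, 6 of 10 members were at least 1.5-fold higher than in NC, against 7.6% of all genes tested, and 0 were lower, against 9.53%. The median log2 ratio was 1.02. These were TP53I3, TP53INP1 (3.67, 2.64 to 5.25), PHLDA3 (2.18), FDXR (2.16), ZMAT3 (2.09) and FAS (1.98). Mix1 and NC came from different libraries, so library and treatment cannot be told apart there. The comparisons with NC share the same NC cells, and their ratios stand side by side without any count of agreement.

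**Figure D2:**
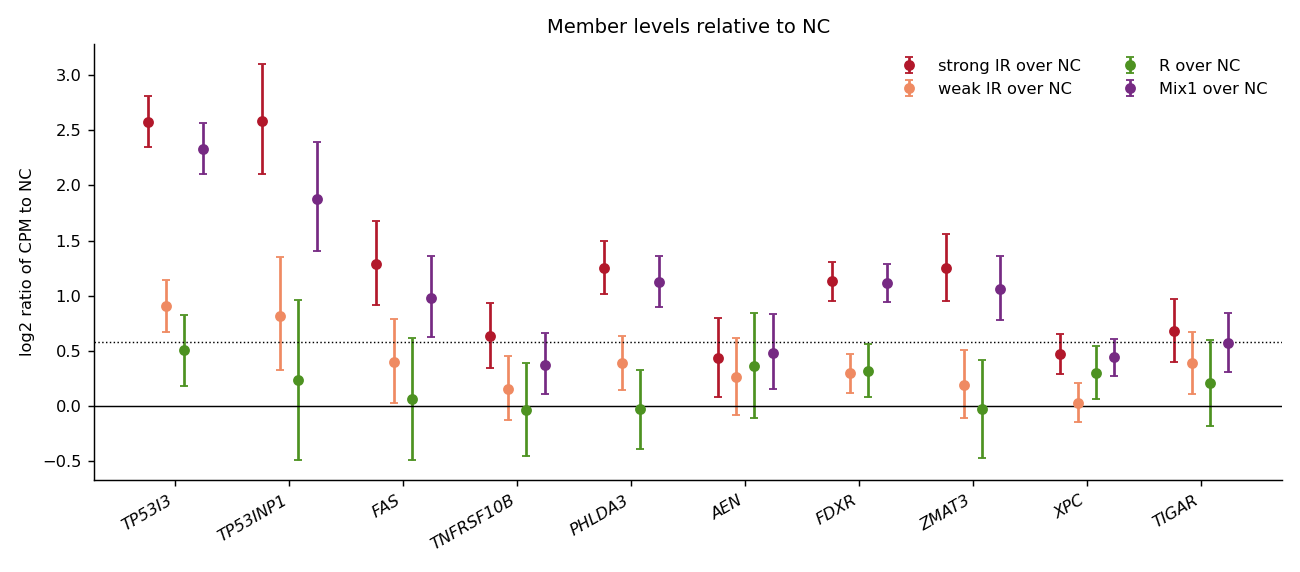
Log2 ratio of the CPM of each member to NC for strong IR, weak IR, R and Mix1; bars are exact 95% intervals of counting error, the solid line is equality and the dotted line 1.5-fold. TP53I3 and TP53INP1 in strong IR lie at 2.57 and 2.58, and 8 of 10 members lie above the dotted line in strong IR.

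Strong IR was also set against R and against weak IR within Mix2. Against R, 7 of 10 members were at least 1.5-fold higher, where 9.08% of all genes were higher and 11.1% lower, led by TP53INP1 (5.05, 3.57 to 7.38) and TP53I3 (4.19, 3.60 to 4.91). TIGAR, XPC and AEN stayed under 1.5-fold, and the intervals of XPC and AEN held 1. Against weak IR, 6 of 10 were higher (7.13% of all genes, with 10.2% lower), with TP53INP1 at 3.39 times (3.03 to 3.78) and TP53I3 at 3.18 times (3.02 to 3.35). Between weak IR and R, 0 of 10 members were 1.5-fold higher (1.6% of all genes) or lower (0.689%). By these counts the 2 ranges of tag8 stood further apart than weak IR and R, as point ratios.

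Along the hashtag, members were compared between the range from about 3200 tag8 counts and the range before it. TP53I3, TP53INP1, FAS, PHLDA3, FDXR, ZMAT3 and XPC stood higher from that limit, with intervals that did not overlap. The intervals of TNFRSF10B, AEN and TIGAR overlapped there. The share of all genes with such a step was not computed. TP53I3 stood at 48.0, 42.0 and 60.0 CPM in the ranges starting at 500, 1000 and 2000 tag8 counts, which make up weak IR, and at 142, 183 and 134 CPM in those starting at about 3200, 6000 and 12000, which make up strong IR. TP53INP1 had 9.12, 8.92, 14.2, 33.7, 40.0 and 32.0 CPM over the same ranges. From the second highest to the highest range every member was lower as a point value, but the share of all genes that were lower was not computed. The intervals of TP53INP1, FAS, TNFRSF10B, PHLDA3, AEN and TIGAR overlapped, FAS with 26.2 against 25.8 CPM and AEN with 16.2 against 15.8 CPM. Those of TP53I3, FDXR, ZMAT3 and XPC did not, FDXR with 122 against 88.5 CPM and XPC with 74.7 against 54.2 CPM. CDKN1A did not turn back there, with 1016 CPM in the range from 6000 and 1062 CPM from 12000. MKI67, a proliferation marker, had 295 CPM in the range from 2000 and 55.4 CPM in the highest range. Median depth also differed, at 13371 UMIs in the range from 6000 and 10713 UMIs from 12000, and its part in these steps was not tested.

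**Figure D3:**
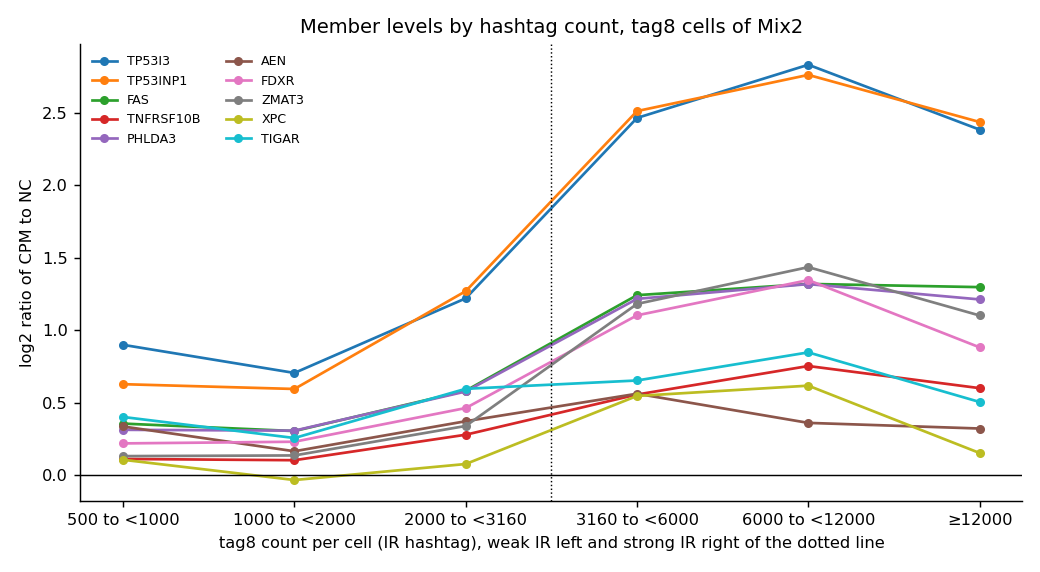
Log2 ratio to NC of the CPM of each member in 6 ranges of tag8 counts per cell, among tag8 cells of Mix2, from 1835 cells in the lowest range to 697 in the highest; the dotted line parts weak from strong IR. TP53I3 and TP53INP1 stand apart from the other members to the right of the line. All members lie lower in the last range than in the one before as point values, FAS and AEN only slightly.

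Cells with a TP53I3 UMI made up 63.9% of strong IR (61.9 to 65.9), 22.6% of weak IR, 21.0% of R and 49.1% of Mix1, against 17.5% of NC (14.97 to 20.3, Clopper-Pearson). Since strong IR cells were deeper, each cell was thinned to 5000 UMIs, which left out 150 strong IR cells, 1099 weak IR cells, 96 R cells and 4963 Mix1 cells, against 111 NC cells. The shares were then 45.2% in strong IR, 15.1% in weak IR, 16.4% in R and 33.7% in Mix1, against 13.2% in NC. TP53INP1 was seen in 310 of 2066 thinned strong IR cells (13.5% to 16.6%), 4.19% of weak IR cells, 2.42% of R cells and 8.28% of Mix1 cells, against 2.00% of NC cells (1.10 to 3.34). All 10 members had a higher thinned share in strong IR than in NC, from 7.79% against 5.15% for AEN and 38.1% against 20.5% for FDXR to the values of TP53I3. The same count over all genes was not made, so this one does not set the members apart.

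The background of free RNA was read in 57822 droplets of Mix2 without cells, which had a median of 403 UMIs. Of these droplets 7.90% held a TP53I3 UMI and 1.20% a TP53INP1 UMI. If each cell took up 403 such UMIs, they would make up 4.30% of the TP53I3 UMIs in strong IR and 22.5% in weak IR, against 41.6% in NC. With that amount subtracted, TP53I3 stood at 152 CPM in strong IR, 39.4 CPM in weak IR and 27.2 CPM in R, against 15.9 CPM in NC, and the ratio of strong IR to NC was 9.56. The level of TP53I3 in NC is therefore the member value that depends most on free RNA.

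Members were also counted together in single cells thinned to 5000 UMIs. On average 2.15 of the 10 were detected in a strong IR cell, 1.18 in a weak IR cell, 1.18 in an R cell and 1.77 in a Mix1 cell, against 0.999 in an NC cell. At least 3 were detected in 39.0% of strong IR cells, 12.1% of weak IR cells, 10.8% of R cells and 26.8% of Mix1 cells, against 7.15% of NC cells. None of the 10 was detected in 12.9% of strong IR cells, against 36.2% of NC cells. Such counts were not made for other sets of genes, so they do not set the members apart. At least 3 UMIs of TP53I3 were found in 7.99% of strong IR, 1.32% of weak IR, 0.372% of R and 5.56% of Mix1 cells, against 0 of 699 NC cells, which allows a share of up to 0.429%.

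Between cells of 1 population, most members went with CDKN1A in strong IR, weak IR and Mix1. R had only 15 cells with 6 or more CDKN1A UMIs. In them 9 of 10 members were at least 1.5-fold higher than in the 241 R cells with 0, with a median ratio of 3.07. The share of all genes was not computed for R. TP53INP1 was the exception, with 0 UMIs in the 15 cells and 11 UMIs in the 241, too few to compare. In strong IR, TP53I3 had 48.1 CPM in cells with 0 CDKN1A UMIs, 93.5 CPM with 1 to 2, 165 CPM with 3 to 5 and 243 CPM with 6 or more. In weak IR the same classes had 24.3, 31.7, 87.1 and 337 CPM. In Mix1 they had 38.7, 66.5, 181 and 267 CPM. The uppermost class thus reached levels of the same order in all 3, but it held 33.9% of strong IR, 3.18% of weak IR and 16.6% of Mix1 cells, against 0.57% of NC cells (4 cells, too few for a level). In the highest class 9 of 10 members were at least 1.5-fold higher than in the lowest in strong IR, all 10 in weak IR and all 10 in Mix1, against 17.8%, 17.6% and 11.9% of all genes. The exception in strong IR was TIGAR, with 28.0 CPM at 6 or more UMIs and 24.0 CPM at 0. Within a class, strong IR was set against NC. Among cells with 0 CDKN1A UMIs, 5 of 10 members were at least 1.5-fold higher in 258 strong IR cells than in 315 NC cells, against 8.52% of all genes, and 1 was lower, against 12.4%. The lower one was AEN (0.67, 0.30 to 1.41). Among cells with 1 to 2, 8 of 10 were higher in 511 strong IR cells than in 338 NC cells, against 10.4% of all genes. With 3 to 5, 5 of 10 were, in 597 strong IR cells against 42 NC cells, beside 25.4% of all genes, with 0 UMIs of TP53INP1 in these NC cells.

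**Figure D4:**
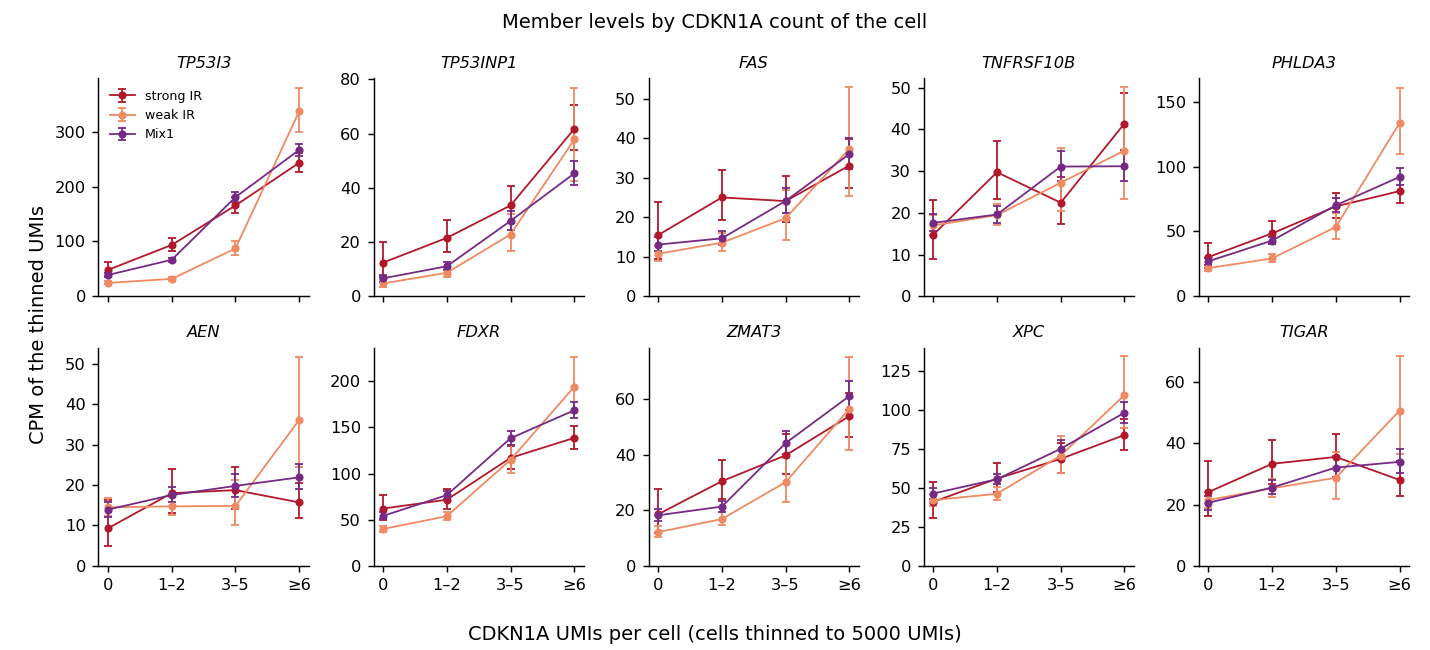
CPM of each member in cells thinned to 5000 UMIs and classed by their CDKN1A UMIs, for strong IR, weak IR and Mix1, with exact Poisson 95% intervals. TP53I3 reaches 243 CPM in strong IR, 337 CPM in weak IR and 267 CPM in Mix1 in the class of 6 or more, and FAS, TNFRSF10B, AEN and TIGAR do not climb at every step in strong IR.

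The same cells were split by their summed UMIs of the 20 mitotic genes at the NC median of 18 UMIs. Below it lay 86.0% of strong IR, 58.7% of weak IR and 78.7% of Mix1 cells, against 49.1% of NC cells. Among these cells, all 10 members were at least 1.5-fold higher in strong IR than in NC, against 14.9% of all genes, with a median ratio of 2.34. Among cells at or above the limit, 5 of 10 were (289 strong IR cells and 356 NC cells), against 8.36% of all genes, with a median ratio of 1.49. TP53I3 showed the widest gap within strong IR, with 179 CPM in cells low for mitotic genes and 38.1 CPM in cells high for them. In NC the same gene had 30.9 CPM in low and 24.7 CPM in high cells, and across the 10 members the median ratio of low to high NC cells was 0.94. Strong IR and NC were also compared at matched depth. From 2500 to under 5000 UMIs, 8 of 10 members were at least 1.5-fold higher in 139 strong IR cells than in 107 NC cells, against 21.7% of all genes. From 5000 to under 10000 UMIs all 10 were, in 639 strong IR cells and 580 NC cells, against 13.1%, TP53I3 with 182 CPM in strong IR against 25.0 CPM in NC. From 10000 to under 20000 UMIs 6 of 10 were, in 1265 strong IR cells and 118 NC cells, against 11.9%, with a median ratio of 1.92. The ratios of XPC in the shallowest range (0.69, 0.40 to 1.21) and of AEN in the deepest (0.87, 0.58 to 1.34) lay under 1, with intervals that held 1.

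Other p53 targets from lists chosen for this description were set beside the members. Of 15 measured targets on the side of death, 9 were at least 1.5-fold higher in strong IR than in NC and 0 lower, against 10.2% and 14.5% of all genes. Their median log2 ratio was 0.63. BBC3, which encodes the BH3 protein PUMA, led with 59.6 CPM in strong IR against 16.1 CPM in NC (3.71 times, 3.03 to 4.60), before DRAM1, a lysosomal inducer of autophagy (2.35 times). BAX, the pore-forming effector at mitochondria, was 1.90 times higher, whereas BID (1.18), APAF1 (1.21) and SIVA1 (0.88) stayed within 1.5-fold. Of 11 measured genes of p53 arrest and feedback, 10 were higher and 1 lower, E2F7 (0.62, 0.48 to 0.80), a repressor of cell cycle genes. CDKN1A had 918 CPM in strong IR and 180 CPM in NC, a ratio of 5.09 (4.79 to 5.41).

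The machinery downstream of FAS and TNFRSF10B, taken as a list, stood near all genes. Of 12 measured genes, 2 were at least 1.5-fold higher and 1 lower in strong IR than in NC, against 10.2% and 14.5% of all genes. The median log2 ratio was -0.05, against -0.09 over all genes tested. The higher ones were BIRC3, an inhibitor of apoptosis that blocks the caspase branch (18.6 CPM in strong IR against 5.24 CPM in NC, 3.54 times), and the adaptor TRADD (1.58 times). CASP8, the initiator that both receptors recruit, had 11.6 CPM in strong IR against 15.4 CPM in NC, and the adaptor FADD 13.6 CPM against 14.7 CPM. The ligand genes were at or near the floor, with 0 UMIs of FASLG in strong IR and NC, which allows up to 0.111 CPM in strong IR and 0.491 CPM in NC, and TNFSF10 at 0.22 CPM in strong IR and 0 UMIs in NC.

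In the pathways of the repair and metabolic members few genes passed 1.5-fold between strong IR and NC, where 10.2% of all genes were higher and 14.5% lower. In lists this small such counts do not set the pathways apart from all genes. Of 12 measured genes of nucleotide excision repair, 0 were higher and 1 was lower, RAD23B, a partner of XPC (67.3 CPM in strong IR against 107 CPM in NC, 0.63, 0.57 to 0.69). DDB2, another damage sensor and p53 target, was 1.42 times higher (1.18 to 1.72), near the 1.39 of XPC. Of 6 measured genes of metabolism around FDXR and TIGAR, 0 passed the limit, and FDX1 and FDX2, the ferredoxins that FDXR serves, stood at 1.18 and 1.01 times NC. Relatives of the members behaved likewise, with 0 of 4 past the limit, among them PHLDA1 (0.91), PHLDA2 (1.07) and CRYZ, a quinone reductase related to TP53I3 (1.03).

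The genes whose 4 log2 ratios to NC (strong IR, weak IR, R and Mix1) lay nearest to those of TP53I3, among 9295 genes by Euclidean distance, were FXYD3 (0.35), IFIT2 (0.38), BTG2 (0.50), TP53INP1 (0.53) and KRTAP2-3 (0.56). Those nearest to TP53INP1 were CDKN1A (0.44), CPA4 (0.46), IFIT2 (0.50), TP53I3 (0.53) and KLK10 (0.54). Each member was thus the fourth nearest gene of the other, over 5 populations that share the NC cells.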

How the data were processed

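The deposited files hold whole UMI counts per gene and barcode, not normalized; the authors aligned reads to GRCh38 with Cell Ranger (3.1.0 for Mix1, 3.0.1 for Mix2 in the file headers). The submitters' processing notes also name Seurat 2.3 and, beside GRCh38, the genome build mm10. Another matrix held Mix2 unfiltered and gave the droplets without cells (200 to under 1000 gene UMIs). Gene UMIs totalled 159242469 in Mix1 and 107393576 in Mix2. Population totals were 27127545 for strong IR, 46991674 for weak IR, 4731705 for R and 150680612 for Mix1, against 6104377 for NC.

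Levels are CPM of UMIs summed over the cells of a population. With 1 sample per population nothing was tested, and intervals are exact (Poisson, conditional binomial, Clopper-Pearson). A gene was called at 1.5-fold among genes with a mean of 5 CPM. Members, lists and hashtag limits were chosen with earlier results of these data known. Named genes were the 10 members, list genes with the largest ratios or needed beside a result, and the 5 nearest patterns. A result of the death receptor list is not reported here. The ratio was tested on simulated data. Doublets were not called; droplets with mixed tags were left out. Alternatives changed the mitochondrial limit, tag share, scaling (TMM of edgeR 4.0.16), weighting, depth, gene filter and background. Python 3.11.15 and scipy 1.17.1 were used.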

Additional observations from a re-analysis of the deposited data

Results flagged for a closer look

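Droplets of Mix2 that held no cell entered no comparison, and 7 of the 10 members were at least 1.5 times as high in their RNA as in NC, against 6.7% of all genes with a mean of 5 CPM. TP53I3 had 200.2 CPM in these droplets, against 153 CPM in strong IR and 25.7 CPM in NC. TP53INP1 had 29.3 CPM, FAS 23.4 CPM, PHLDA3 59.5 CPM, FDXR 91.6 CPM, ZMAT3 35.6 CPM and TIGAR 33.9 CPM in the droplets, each under its level in strong IR except TIGAR, which had 31.0 CPM there.

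The 506 barcodes of Mix2 with about 3200 tag8 counts or more that exceeded the mitochondrial limit were likewise left out of the comparisons. Scaled without mitochondrial UMIs, all 10 members were at least 1.5 times as high in them as in NC, against 22.5% of all genes. TP53I3 had 249 CPM in them, against 162 CPM in strong IR and 27.4 CPM in NC on the same scale. TP53INP1 had 70.2 CPM, against 37.3 CPM in strong IR and 6.28 CPM in NC. FAS had 37.0 CPM in these barcodes, TNFRSF10B 47.0 CPM, PHLDA3 71.2 CPM, AEN 21.8 CPM, FDXR 172 CPM, ZMAT3 70.0 CPM, XPC 106 CPM and TIGAR 41.9 CPM, each above its level in strong IR. Their median depth was 8902 UMIs with 12.8% mitochondrial UMIs.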

How the results depend on the processing

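The member counts of strong IR against NC, R and weak IR and of Mix1 against NC stayed within 1.5 times the main count under each alternative run. The weak IR count of 2 became 7 at a mitochondrial limit of 5%. The R count of 0 became 7 at that limit, which left 31 R cells and 172 NC cells, and 1 at a limit of 20%. It became 3 at an own tag of 95%, which left 44 R cells and 88 NC cells, 2 after thinning and 1 with free RNA subtracted. For weak IR against R the count of 0 became 4 at 5%, 3 with equal weight per cell, and 1 at an own tag of 95%, with TMM, after thinning, with free RNA subtracted and from 1000 tag8 counts. Counts of all genes past 1.5-fold depended on the filter. With a mean of 20 CPM or with no filter they were 375 and 6181 (strong IR to NC, main 947), 32 and 5485 (weak IR to NC, 133), 32 and 2596 (R to NC, 233), 302 and 10231 (Mix1 to NC, 706), 305 and 5940 (strong IR to R, 844), 20 and 5525 (weak IR to R, 149), and 271 and 4594 (strong to weak IR, 663). Of 750 member ratios under alternatives, 635 lay inside the main interval, 115 moved outside it and 0 turned a 1.5-fold difference round. Only ratios past 1.5-fold in the main run could count as turned. Smaller ones did change direction: strong IR against R went down to 0.51 for AEN, 0.55 for XPC and 0.61 for TIGAR. Their main ratios were 1.05, 1.12 and 1.38. TP53I3 in strong IR ranged over 5.28 to 9.56 times NC and TP53INP1 over 5.18 to 9.35, while TNFRSF10B (1.26 to 1.72) and TIGAR (1.37 to 1.77), both past 1.5 in the main count, and XPC (1.08 to 1.61) and AEN (1.09 to 1.505), both under it, crossed 1.5. The cause of these shifts was not tested. No paired analysis was possible because each population is 1 sample. Depth limits TP53INP1 in NC and R, with 36 and 33 UMIs.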

Other observations

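In Mix2, 1118 barcodes in the tag8 range of weak IR exceeded the mitochondrial limit. Scaled without mitochondrial UMIs, every member stood higher in them than in strong IR and in weak IR. The share of all genes that did so was not computed, so this does not set the members apart. TP53I3 had 217 CPM in these barcodes, against 162 CPM in strong IR and 51.5 CPM in weak IR. TP53INP1 had 57.7 CPM in them, against 37.3 CPM in strong IR and 11.1 CPM in weak IR. In Mix1 the 1389 barcodes over the limit had 255 CPM of TP53I3, against 135 CPM in the cells kept, and 246 CPM of FDXR, against 108 CPM.

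Cells were also split by TP53I3 itself after thinning to 5000 UMIs, which uses the member and so describes only the other 9. In Mix1, 6 of these 9 were at least 1.5-fold higher in the 3594 cells with a TP53I3 UMI than in the 7073 without, against 2.97% of all genes, led by TP53INP1 with 31.7 CPM in cells with it against 11.7 CPM in cells without. In strong IR, 2 of 9 were, against 4.24% of all genes, TP53INP1 with 51.4 against 26.0 CPM and FDXR with 133 against 84.1 CPM. In weak IR, 4 of 9 were, against 2.78%, with TP53INP1 at 22.6 against 7.17 CPM. In NC, 1 of 9 was higher (8.98% of all genes) and 3 were lower (15.6%), from 92 cells with the UMI and 607 without. In R, 2 of 9 were higher and 2 lower, from 88 cells with the UMI and 449 without, and the median ratio of the 9 was 0.85. The share of all genes was not computed for R. TP53INP1 had 13.6 against 4.01 CPM there, from 6 and 9 UMIs.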
